A study of Papio anubis with 60 samples.

Results

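Peaks of H3K4me3, histone H3 trimethylated on lysine 4, were compared between embryonic stem cells (ESC) and induced pluripotent stem cells (iPSC) of the olive baboon, Papio anubis, on chromosomes 1 to 20. All peaks of the H3K4me3 lists of both cell types that lie on these autosomes were taken, each by its start, end and summit, the base of highest signal. They came to 305565 of 336658 peaks in the ESC list and to 308062 of 330423 in the iPSC list. The ESC lines were B4 and B15 and the iPSC lines, made by reprogramming, were 160-2 and M14939#3. The labels name no treatment, and both cell types were grown on a layer of feeder cells in the same medium. Chromatin of 50000 cells per library was cut with micrococcal nuclease, an enzyme that digests the DNA between nucleosomes, and H3K4me3 was taken from 3 replicates of each line, 12 of the study's 60 libraries. The lists hold 1 set of peaks per cell type, with no separate lists of lines or replicates, so no spread between replicates could be had and no difference below was tested. Each line belongs to 1 cell type, and differences of cell type and of line cannot be told apart. Intervals are 95% intervals for counting error, and neighbouring peaks are not independent.

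H3K4me3 is deposited by complexes of the SET1 and MLL methyltransferases and is known for marking the nucleosomes next to transcription start sites. Unmethylated CpG islands carry it in pluripotent cells also where the gene is silent, and there it is often joined by H3K27me3, the mark of Polycomb repression. H3K27ac marks active promoters and enhancers, and H3K9me3 marks heterochromatin. An annotation of the lists' genome build was not used here, so peaks are described by position and not by gene, and whether they sit at promoters was not examined.

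The lists were alike in size and grain. The ESC peaks covered 135.0 Mb, 5.20% of the autosomes, and the iPSC peaks 140.7 Mb, 5.42%. There were 118 ESC and 119 iPSC peaks per Mb. Most peaks were narrow. The median width was 276 bp in ESC, with quartiles of 180 and 469 bp, and 290 bp in iPSC, with quartiles of 186 and 503 bp. The narrowest width was 139 bp in the ESC list, shared by 10702 peaks or 3.502%, and 145 bp in the iPSC list, shared by 11488 peaks or 3.73%. Peaks of a list did not overlap each other, and the closest edges were 102 bp apart in both. Summits sat near the middle, at a median of 49.4% of the width in both lists.

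A peak was counted as in common when it shared at least 1 bp with a peak of the other list. Of the ESC peaks 217556, or 71.2% (71.0 to 71.4%), were in common, and of the iPSC peaks 214684, or 69.7% (69.5 to 69.9%). These shares are the background for every class below. The other 88009 ESC peaks and 93378 iPSC peaks are called one-sided. A one-sided peak is one that the other list lacks; signal under the other list's limit of calling cannot be seen in a list.

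The share in common rose steeply with width. Classes below run from their lower limit up to, and not including, their upper limit. In common were 50.9% of the ESC and 43.8% of the iPSC peaks under 200 bp, 69.1% and 67.6% at 200 to 400 bp, and 92.2% and 92.4% at 400 to 1000 bp. At 1000 to 2000 bp the shares were 99.8% and 99.7%. From 2000 to 5000 bp 6776 of 6778 ESC and 6312 of 6312 iPSC peaks were in common, and all 252 ESC and 267 iPSC peaks of at least 5000 bp. Peaks of at least 1 kb were a small group, 25693 or 8.41% of the ESC and 27292 or 8.86% of the iPSC peaks. They held 33.9% of the base pairs that the ESC list covers and 33.4% of those of the iPSC list. Of them 47 ESC and 58 iPSC peaks were one-sided.

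**Figure D1:**
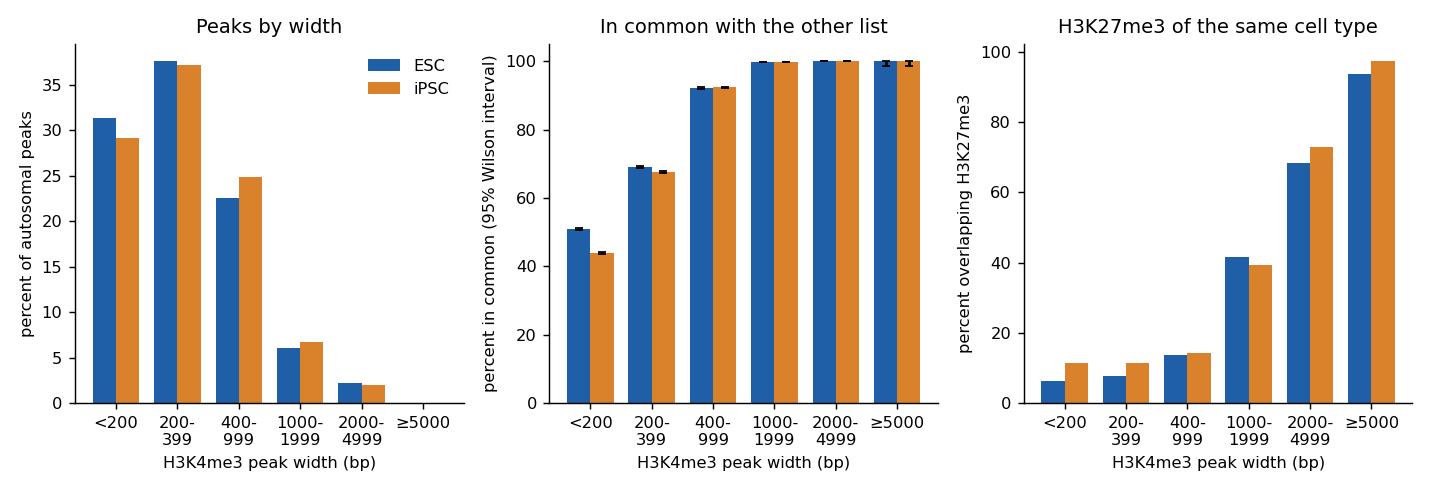
Autosomal H3K4me3 peaks of ESC (blue) and iPSC (orange) by width in bp: the percent of each list in a class, the percent in common with the other list (bars are 95% Wilson intervals) and the percent that overlap an H3K27me3 peak of the same cell type. The share in common is 92.2% and 92.4% from 400 to 1000 bp, and H3K27me3 reaches 93.7% of the ESC and 97.4% of the iPSC peaks of at least 5000 bp.

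The fold enrichment over background and the −log10 q are the authors' own values of each peak and are used here within a list. They rose with width up to 5 kb. The median fold of the ESC peaks was 3.15 under 200 bp, 3.24 at 200 to 400 bp, 4.33 at 400 to 1000 bp, 7.996 at 1000 to 2000 bp and 10.3 at 2000 to 5000 bp. In the iPSC list the same classes had medians of 3.23, 3.29, 4.36, 6.78 and 8.39. Peaks of at least 5000 bp had medians close to those of the class before, 10.2 and 8.49. Narrow peaks were therefore also the weak ones, and width and strength were not separated by the shares above.

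The company of other marks changed with width as well. H3K27me3 of the same cell type overlapped 6.37% of the ESC peaks under 200 bp, 41.7% of those at 1000 to 2000 bp, 68.3% of those at 2000 to 5000 bp and 93.7% of those of at least 5000 bp. The iPSC list ran from 11.4% through 39.5% and 73.0% to 97.4%. H3K27ac followed another course, with its highest share at 1000 to 2000 bp, 65.8% in ESC and 53.9% in iPSC, and 41.3% and 25.5% at 5000 bp and over. H3K9me3 was least frequent at 1000 to 2000 bp in ESC, 11.9%, and most frequent at 5000 bp and over, 35.3%. A longer peak meets any other peak more easily, and the ESC list of H3K27ac covered 3.95% of the autosomes against 2.10% for iPSC, while H3K27me3 covered 2.08% in ESC and 3.47% in iPSC. Shares of a mark in ESC and iPSC are therefore not on the same footing.

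The widest ESC peak spanned 15176 bp on chromosome 2, from 148986016 to 149001191 in the coordinates of the lists, of a build that neither the labels nor the lists name. The widest iPSC peak, of 15493 bp from 148985696 to 149001188, was the same place, and H3K27me3 covered 100% of both in its own cell type. A pair of other wide peaks matched on chromosome 7, 13787 bp in ESC from 27125524 to 27139310 and 11079 bp in iPSC from 27128171 to 27139249. The other 3 of the 5 widest ESC peaks lay on chromosomes 15 (84238800 to 84251487, and 39126577 to 39138375) and 3 (42223011 to 42234736). Each met 2 or 3 iPSC peaks, and these covered 99.1%, 97.4% and 96.8% of it. The remaining 3 of the 5 widest iPSC peaks, on chromosomes 7 (117641052 to 117654259) and 12 (56579597 to 56591171, and 122146980 to 122157519), met 2 or 3 ESC peaks that covered 93.6% to 98.97% of them. H3K27me3 of the same cell type covered at least 81.1% of every one of these 10 peaks. The same ground was thus marked in both cell types and was cut into peaks in different ways.

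Such cuts were frequent among wide peaks. Of the ESC peaks of at least 2 kb 36.0% overlapped 2 or more iPSC peaks, with up to 9 pieces, and of the iPSC peaks of that width 29.5% overlapped 2 or more ESC peaks, with up to 8. Under 200 bp the counts were 8 ESC and 4 iPSC peaks. A total of 178329 pairs were one-to-one, in that each peak met no other peak of the opposite list. Their width in iPSC over that in ESC had a median of 1.03, with quartiles of 0.889 and 1.27. Widths were within 1.5 times of each other in 74.2% of these pairs. Sorted by the geometric mean of both widths, this held for 88.0% of pairs under 200 bp, 61.2% at 200 to 400 bp, 79.3% at 400 to 1000 bp, 98.4% at 1000 to 2000 bp and 99.9% at 2000 to 5000 bp. Under 200 bp the narrowest widths in the lists, 139 bp in ESC and 145 bp in iPSC, limit how far a pair can differ. Where a wide peak stood whole in both lists, its width was close to the same.

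Wide one-sided peaks were rare enough to name. The list of ESC peaks of at least 2 kb without an iPSC peak had 2 entries, and that of iPSC was empty. The first lay on chromosome 8 (135626715 to 135629971, 3257 bp) with a fold of 10.4 and a −log10 q of 74.3. The nearest iPSC peak was 9616 bp away. H3K9me3 covered 97.8% of this stretch in ESC and 85.9% in iPSC, and H3K27me3 covered 74.98% and 69.5%. The second lay on chromosome 10 (88794934 to 88797038, 2105 bp) with a fold of 4.11, 9706 bp from the nearest iPSC peak. No ESC H3K9me3 peak touched it, while iPSC H3K9me3 covered 100% and iPSC H3K27me3 76.5% of it.

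Among one-sided peaks with no peak of the other list within 10 kb, the 5 with the highest −log10 q in ESC had values of 41.3 to 74.8. The median of all far one-sided ESC peaks was 5.62, and that of the ESC peaks in common 10.1. The first, on chromosome 9 (36413719 to 36414223), had a fold of 14.5 and a −log10 q of 74.8, with an iPSC H3K9me3 peak over 100% of it and an ESC one over 28.7%. The second, on chromosome 10 (59147935 to 59149172), had a fold of 10.6 and a −log10 q of 70.8. ESC H3K27ac covered 48.7% of it, and iPSC H3K9me3 89.6%. Next came a peak on chromosome 1 (122875536 to 122877015), with a fold of 10.7. It lay in iPSC H3K9me3 over 100% of its length and met no ESC H3K9me3 peak. The last 2 (chromosome 1, 21216822 to 21217981, and chromosome 16, 14690802 to 14691389) had folds of 10.4 and 8.96 and met no iPSC peak of H3K9me3 or H3K27ac.

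The 5 iPSC peaks chosen in the same way had −log10 q values of 30.5 to 43.0 and folds of 6.12 to 8.38. The first, on chromosome 10 (32755297 to 32756178), overlapped H3K27ac in both cell types, 47.2% covered in ESC and 17.0% in iPSC. The second, on chromosome 8 (54795253 to 54795814), met no peak of the other 3 marks in either cell type. Another, on chromosome 4 (925514 to 926136), lay wholly in ESC H3K9me3 and ESC H3K27me3, and ESC H3K27ac covered 45.4% of it. In iPSC H3K27me3 covered 95.7% of this peak, and no H3K27ac or H3K9me3 peak met it. The last 2 (chromosome 16, 19773820 to 19774247, and chromosome 2, 33142053 to 33143083) met ESC H3K9me3 over 40.4% and 28.6% of their length. The one on chromosome 2 also met iPSC H3K27me3 over 40.8% and iPSC H3K9me3 over 24.2%.

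Distances between neighbouring summits varied widely in both lists. The median distance to the next summit was 2948 bp (2924 to 2975) in ESC and 2828 bp (2802 to 2854) in iPSC, while the autosomal length per peak, which the number of peaks fixes, was 8488 and 8420 bp. In ESC 26.3% of the distances were under 1 kb, 34.6% from 1 to 5 kb, 27.5% from 5 to 20 kb and 11.5% over 20 kb. The iPSC shares were 26.7%, 34.7%, 26.9% and 11.7%. Distances under 250 bp were rare, 712 in ESC and 557 in iPSC. Widths of at least 139 bp in ESC and 145 bp in iPSC, with edges at least 102 bp apart, leave little room for them.

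On a log scale the distances had a pair of tops in each list. Each top was the highest bin of a range set for it, and such a search returns a pair for any list. In bins of 0.05 log10 units the first top was at 708 to 794 bp in ESC and at 794 to 891 bp in iPSC. The second lay at 5623 to 6310 bp in both, and the lowest bin between them at 3162 to 3548 bp in both. The dip was shallow: the ESC bins held 8858, 7203 and 7731 distances in the order first top, dip and second top, and the iPSC bins 9425, 7015 and 7443. The iPSC bins on either side of its second top held 7240 and 7259, so this top was nearly level. Distances of 500 to 1000 bp made up 16.7% in ESC and 17.6% in iPSC, and those of 250 to 500 bp 9.36% and 8.97%.

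**Figure D2:**
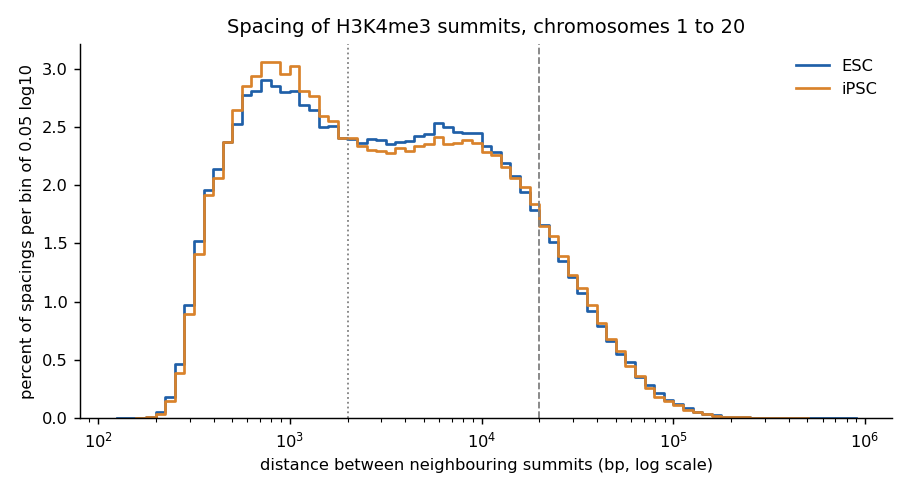
Distance in bp (log scale) between neighbouring H3K4me3 summits on the autosomes, as the percent of all distances of a list per bin of 0.05 log10 units, for ESC (blue) and iPSC (orange). Both lists show a first top under 1 kb and a lower second one near 6 kb, and the dotted and dashed lines mark the limits of 2 kb and 20 kb used for clusters and isolated peaks.

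At the long end, 5% of the distances were over 34.6 kb in either list. The longest ESC stretch without a summit was 967 kb of chromosome 19, from 20798538 to 21765581, with 3 iPSC summits inside. It held no H3K27ac peak of either cell type, 237 ESC and 267 iPSC peaks of H3K9me3, and 164 iPSC but no ESC peaks of H3K27me3. The longest iPSC stretches shared that place: the first ran for 538 kb from 20704142 to 21241702 and another for 421 kb from 21241702 to 21662229, so that a single iPSC peak stood between them. The next longest ESC stretches, of 536 kb on chromosome 11 (34406602 to 34942788) and 525 kb on chromosome 15 (11928366 to 12452996), also held no H3K27ac peak. They held 101 and 173 ESC peaks of H3K9me3 and 2 iPSC summits of H3K4me3 each. The second iPSC stretch, 447 kb of chromosome 17 (42467151 to 42914642), differed in holding 9 iPSC and 13 ESC peaks of H3K27ac, and it had 4 ESC summits of H3K4me3.

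Clusters were chains of peaks of a list whose neighbouring summits were at most 2 kb apart. A wide peak can end such a chain even where the next peak begins close to its edge. The ESC list fell into 110393 single peaks, 36.1% of it, 59425 clusters of 2 to 4 peaks, 7074 of 5 to 9 and 497 of at least 10. The iPSC list had 108074 single peaks, 35.1% of it, then 59712, 7406 and 564 clusters. Clusters of at least 10 held 1.92% of the ESC and 2.18% of the iPSC peaks and spanned a median of 9886 and 10397 bp. Peaks covered a median of 52.4% and 53.4% of the span. A cluster of this size need not hold a wide peak, since in 190 of the 497 ESC and 167 of the 564 iPSC clusters the widest peak was under 1 kb. With edges in place of summits at most 2 kb apart, a rule added after the data were seen, there were 1096 ESC and 1231 iPSC clusters of at least 10, with 4.70% and 5.27% of the peaks.

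Peaks with more neighbours were more often in common. From single peaks through clusters of 2 to 4 and of 5 to 9 to those of at least 10, the ESC share went from 64.0% through 73.8% and 79.3% to 82.6% (81.6 to 83.5%). The iPSC share went from 63.9% through 72.0% and 75.1% to 76.7% (75.6 to 77.7%). Peaks in clusters were also a little wider, with a median of 317 bp in the ESC clusters of at least 10 against 259 bp for single peaks. Among peaks of 200 to 400 bp alone the shares still ran from 62.3% to 80.3% in ESC and from 62.9% to 73.1% in iPSC. Chained by edges, single peaks and clusters of at least 10 had shares of 62.2% and 84.3% in ESC and of 62.1% and 79.1% in iPSC. The other list was dense there too, with a median of 9 peaks inside a cluster of at least 10, and the part of that density in these shares was not tested.

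H3K27me3 was more frequent in large clusters and H3K27ac less. In ESC 6.81% of the single peaks and 33.5% of the peaks in clusters of at least 10 overlapped H3K27me3. In iPSC these shares were 12.5% and 30.9%. H3K27ac overlapped 50.2% of the single ESC peaks and 38.5% of those in large clusters, and 34.0% and 30.9% in iPSC. H3K9me3 fell with cluster size less evenly, from 21.7% to 17.4% in ESC and from 14.4% to 10.99% in iPSC.

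How often a large cluster of one list met a large cluster of the other depended on the rule that joins peaks. Of the 497 ESC clusters 166, or 33.4% (29.4 to 37.7%), overlapped an iPSC cluster of at least 10, and of the 564 iPSC clusters 169, or 29.96% (26.3 to 33.9%), overlapped such an ESC cluster. Chained by edges, 612 of 1096 ESC clusters, 55.8%, and 615 of 1231 iPSC clusters, 49.96%, did. By the summit rule no cluster of at least 10 in either list was without a peak of the other. The other list had at least 10 peaks inside 42.9% of these ESC and 42.7% of these iPSC clusters.

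By the summit rule the largest ESC cluster had 48 peaks in 47.3 kb of chromosome 16, from 30173578 to 30220906. H3K27me3 covered 100% of it in ESC and 99.1% in iPSC. The iPSC list had 49 peaks there, 1 more than ESC. Most of them formed 2 of the 5 largest iPSC clusters, of 24 peaks from 30177158 to 30200959 and 22 peaks from 30201183 to 30220926. Chained by edges, the largest cluster of both lists was here, with 113 ESC peaks from 30173578 to 30282043 and 105 iPSC peaks from 30173555 to 30282062. The second ESC cluster had 41 peaks in 42.2 kb of chromosome 11, from 50024432 to 50066651, with 39 iPSC peaks inside. The largest iPSC cluster by the summit rule, of 34 peaks from 50030346 to 50061543, was part of this place, and all its peaks were in common. H3K27me3 covered 100% of the chromosome 11 clusters in both cell types. A further iPSC cluster had 21 peaks on chromosome 16, from 30352312 to 30372272, again wholly inside H3K27me3, with 17 ESC peaks.

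The other clusters named by size were not all of this kind. An ESC cluster had 24 peaks on chromosome 5 (58433106 to 58455106), with H3K27me3 over 84.0% and H3K9me3 over 42.1% of it, and 15 iPSC peaks. A pair of ESC clusters of 23 peaks each lay on chromosome 1 (7711864 to 7731415, and 128409866 to 128428702). There H3K27me3 covered 2.85% and 2.95%, and H3K27ac covered 27.9% and 41.5%. They held 16 and 22 iPSC peaks. The second iPSC cluster had 28 peaks on chromosome 13 (43963555 to 43988389) with 26 ESC peaks. H3K27me3 covered 60.03% of it in ESC and 16.1% in iPSC.

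Isolated peaks, those with no other summit of their own list within 20 kb, numbered 8464 in ESC, 2.77% of the list, and 8203 in iPSC, 2.66%. They were narrower than the rest, with a median of 238 against 277 bp in ESC and 241 against 292 bp in iPSC. In common were 61.7% (60.7 to 62.8%) of the isolated and 71.5% of the other ESC peaks. In iPSC the shares were 57.9% (56.8 to 58.96%) and 70.01%. The gap was there in each class under 1 kb: at 200 to 400 bp 62.7% of the isolated and 69.3% of the other ESC peaks were in common, and 59.6% and 67.9% of the iPSC peaks. At 1 kb and over 451 of 451 isolated ESC peaks and 335 of 336 isolated iPSC peaks were in common.

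An isolated peak in common was more often isolated in the other list too than peaks at large, though mostly it was not. In the whole lists 2.77% of the ESC and 2.66% of the iPSC peaks were isolated. Of the 5224 isolated ESC peaks in common 41.0% had a counterpart that was isolated too, and of the 4749 isolated iPSC peaks in common 45.1% did, the same 2141 pairs. Of the 3240 one-sided isolated ESC peaks 70.8% had no iPSC peak within 10 kb, and of the 3454 such iPSC peaks 72.2% had no ESC peak within 10 kb. Among all one-sided peaks these shares were 13.9% in ESC and 13.3% in iPSC.

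Isolated peaks kept different company. H3K27ac of the same cell type overlapped 53.6% of the isolated and 46.4% of the other ESC peaks, and 35.3% and 32.7% of the iPSC peaks. H3K27me3 overlapped 3.25% and 12.4% in ESC, and 14.4% and 15.4% in iPSC. The direction in iPSC depended on width. Under 200 bp 16.2% of the isolated and 11.2% of the other iPSC peaks overlapped iPSC H3K27me3. The shares were 12.7% and 11.4% at 200 to 400 bp, 8.32% and 14.4% at 400 to 1000 bp, and 42.3% and 47.9% from 1 kb on. H3K9me3 overlapped 29.6% and 18.5% in ESC, and 20.8% and 11.8% in iPSC. Wide isolated peaks went the other way in strength. The 451 isolated ESC peaks of at least 1 kb had a median fold of 11.4 against 8.71 for the other peaks of that width, and the 336 in iPSC had 8.48 against 7.19. H3K27ac of the same cell type overlapped 79.4% of these 451 and 64.3% of the other wide ESC peaks, and 65.8% and 52.5% in iPSC.

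The widest isolated peak was the same in both lists, on chromosome 8, 7621 bp in ESC (108933609 to 108941229) and 7553 bp in iPSC (108933661 to 108941213), with folds of 14.5 and 13.5. H3K27me3 covered 84.4% of the ESC peak in ESC and 44.1% of it in iPSC.

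Most one-sided peaks lay within 10 kb of a peak of the other list. With an autosomal length per peak of 8488 bp in ESC and 8420 bp in iPSC, such nearness is not particular to them. The share of all ground that near was not measured. The median distance from edge to edge was 1884 bp for ESC and 1501 bp for iPSC one-sided peaks. Within 1 kb lay 38.03% and 42.3% of them. Over 10 kb away were 12234 ESC peaks, 13.9% of the one-sided and 4.004% of the list, and 12385 iPSC peaks, 13.3% and 4.02%. One-sided peaks were narrow and weak, with a median width of 191 bp in both lists and median folds of 2.93 in ESC and 3.13 in iPSC, against 335 bp and 3.89, and 367 bp and 3.96, for peaks in common.

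One-sided ESC and iPSC peaks were alike in number, width and distance, but not in the marks beside them. H3K9me3 of ESC overlapped 13.8% of the ESC peaks in common, 23.7% of the one-sided within 1 kb, 33.1% of those at 1 to 10 kb and 43.5% (42.6 to 44.4%) of those over 10 kb away. H3K9me3 of iPSC overlapped 11.7% of the iPSC peaks in common and 10.97%, 13.6% and 15.5% (14.9 to 16.2%) of the same classes. The ESC list of H3K9me3 covered 8.46% of the autosomes and that of iPSC 6.96%. Among peaks of 200 to 400 bp with a −log10 q of 5 to 10, the ESC shares were 14.6% in common and 44.8% over 10 kb away, and the iPSC shares 12.02% and 11.6%. At the far ESC peaks of all widths, iPSC H3K9me3 overlapped 38.7% and iPSC H3K27me3 29.6%, against 11.5% and 17.4% at ESC peaks in common. At the far iPSC peaks of all widths the same marks of ESC overlapped 16.2% and 1.20%, against 13.8% and 15.0% at iPSC peaks in common.

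H3K27me3 of the same cell type became rarer with distance, from 15.2% of the ESC peaks in common to 1.01% of those over 10 kb away, and from 17.4% to 8.98% in iPSC. H3K27ac of ESC overlapped 51.2% of the ESC peaks in common and 35.9% of the far ones. H3K27ac of iPSC overlapped 38.1% and 25.6%. At the same far peaks the H3K27ac of the other cell type overlapped 13.5% of the ESC and 28.8% of the iPSC peaks. At peaks in common it overlapped 37.9% of the ESC and 51.6% of the iPSC peaks. With width held to 200 to 400 bp and −log10 q to 5 to 10, shares of H3K27ac of the same cell type differed less. They were 46.5% in common and 39.8% over 10 kb away in ESC, and 31.7% and 31.3% in iPSC.

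**Figure D3:**
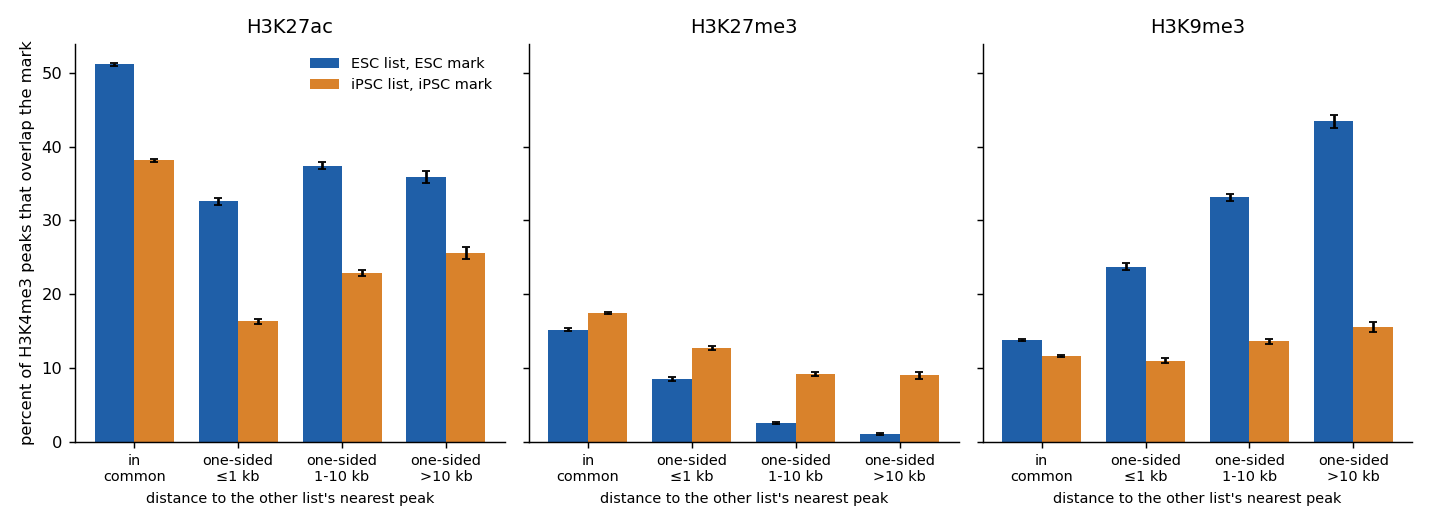
Percent of autosomal H3K4me3 peaks of ESC (blue) and iPSC (orange) that overlap a peak of H3K27ac, H3K27me3 or H3K9me3 of the same cell type, for peaks in common and for one-sided peaks by distance to the nearest peak of the other list (bars are 95% Wilson intervals). H3K9me3 climbs from 13.8% to 43.5% in ESC, and in iPSC it goes from 11.7% through 10.97% and 13.6% to 15.5%.

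Narrow peaks, under 400 bp, were more often in common close to a wide peak of their own list. Within 1 kb of an ESC peak of at least 1 kb, 75.3% of 15703 narrow ESC peaks were in common. At 1 to 2 kb the share was 67.8%, at 2 to 5 kb 63.0%, and at 5 to 20 kb, 20 to 100 kb and beyond 100 kb between 59.0% and 59.2%. In iPSC it was 67.3% within 1 kb, then 58.1%, 57.4%, 57.9% and 56.3%, and 53.7% beyond 100 kb. Some of the nearest were met by a wide peak of the other list that reached over them. Without these the share within 1 kb was 71.2% in ESC and 63.0% in iPSC. H3K27me3 of the same cell type overlapped 33.8% of the nearest narrow ESC peaks and 2.01% of those beyond 100 kb, and 26.2% and 11.1% in iPSC.

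The shift of summits was measured on 208528 pairs in which each summit was the nearest of the opposite list to the other, at most 1 kb apart. They took in 68.2% of the ESC and 67.7% of the iPSC peaks. The median absolute shift was 26 bp (25 to 26), with quartiles of 9 and 83 bp. The signed shift of iPSC against ESC had a median of 0 bp, with 49.4% of pairs on the side of higher coordinates and 48.9% on the other. In 28.1% of pairs the shift was up to 10 bp, and in 66.1% it was up to 50 bp.

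The shifts did not thin out evenly. In bins of 10 bp the count fell to 1248 pairs at 140 to 149 bp, rose to 1752 at 190 to 199 bp and fell again. Shifts of 150 to 250 bp made up 15987 pairs, 7.67%, and those of at least 250 bp 10.4%. In 97.0% of the pairs at 150 to 250 bp the peaks overlapped, so that both lists marked the place and put its highest base at different positions. The second top was also seen by width of the ESC peak: at 400 to 1000 bp the low was at 140 to 149 bp with 388 pairs and the top at 200 to 209 bp with 785. At 1000 to 2000 bp they were at 130 to 139 bp with 63 pairs and at 190 to 199 bp with 194. At 200 to 400 bp the rise was smaller, from 656 pairs at 140 to 149 bp to 778 at 160 to 169 bp. Peaks under 200 bp had their low at 190 to 199 bp, with 113 pairs, and a top of 199 pairs at 250 to 259 bp.

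**Figure D4:**
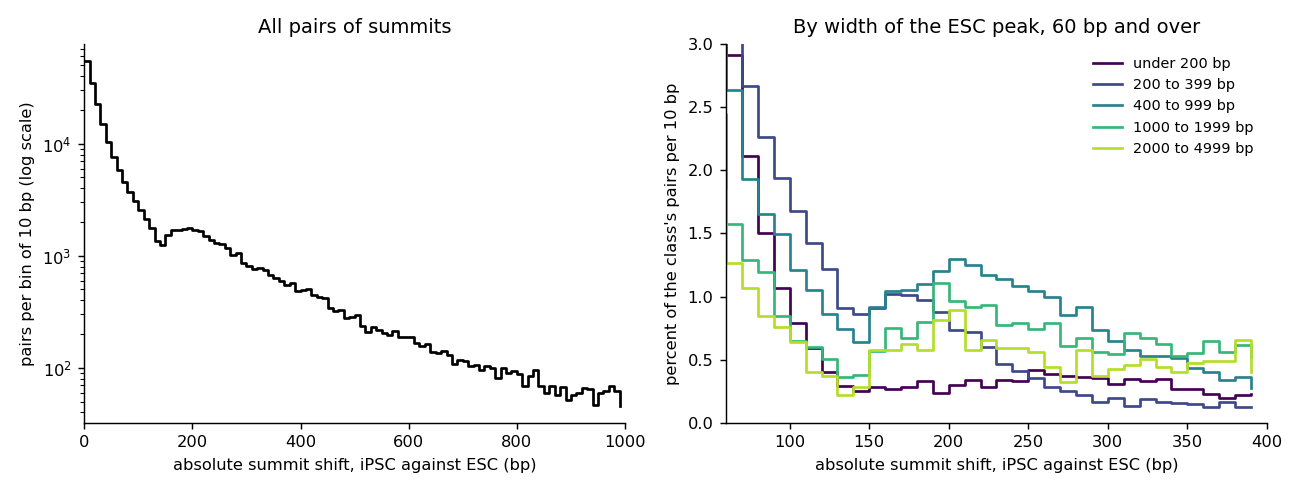
Absolute shift in bp between paired ESC and iPSC summits: pairs per 10 bp for all 208528 pairs (log scale), and the percent of each class of ESC peak width per 10 bp from 60 bp on. After a low near 140 bp the counts rise again to a top near 190 to 209 bp in the classes from 400 to 5000 bp.

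The typical shift was smaller for stronger peaks, but large shifts were not rarer in the strongest group than in the weakest. With ESC peaks of the pairs cut into 5 groups of equal size by −log10 q, the median shift was 46 bp in the weakest, then 29, 24 and 21 bp, and 18 bp (18 to 19) in the strongest. Shifts of at least 250 bp made up 12.6% of pairs in the weakest group, 8.32% in the group below the strongest and 13.0% in the strongest. The second top was in each of the 5 groups, between 170 and 209 bp. Summits of isolated ESC peaks had a median shift of 26 bp, and those in clusters of at least 10 one of 23 bp. In peaks of at least 1 kb the median was 26 bp but 22.3% of shifts were at least 250 bp, against 5.70% at 200 to 400 bp.

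By autosome the ESC share in common was nearly level and the iPSC share was not. Over the 20 autosomes the ESC share was 71.0% ± 1.51 (SD over chromosomes), from 68.8% on chromosome 13 to 73.8% on 16. Low values also came from chromosomes 8 and 10, 69.2% and 69.3%, and high ones from 14 and 1, both 73.1%. The iPSC share was 70.1% ± 3.99, from 64.6% on chromosome 5, 66.4% on 2 and 66.5% on 17 to 74.0% on 10, 76.1% on 16 and 82.1% on 19. The iPSC share was the higher one on 5 autosomes, and the difference, iPSC minus ESC, ran from -6.27 percentage points on chromosome 2 to 11.2 on chromosome 19. On chromosome 19 there were 8797 ESC and 7913 iPSC peaks, and on chromosome 2 19109 and 20552. Counts in common were close from both sides, 6238 ESC and 6494 iPSC peaks on chromosome 19 and 13887 and 13648 on chromosome 2. The differences in share there thus mostly follow the numbers of peaks.

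Autosomes differed in how dense and wide their peaks were, in both lists alike. Chromosome 5 had the fewest ESC peaks, 86.4 per Mb, the longest median spacing, 4091 bp, the narrowest median width, 255 bp, and the most isolated peaks, 5.50%. Chromosome 19 had the most ESC peaks, 171 per Mb, the widest median, 343 bp, the most peaks of at least 1 kb, 17.4%, and the fewest isolated ones, 0.739%. The shortest median spacing was that of chromosome 16, 2285 bp. The iPSC list had the same chromosome at each of these ends except the highest density, where chromosome 16 was highest with 163 peaks per Mb.

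**Figure D5:**
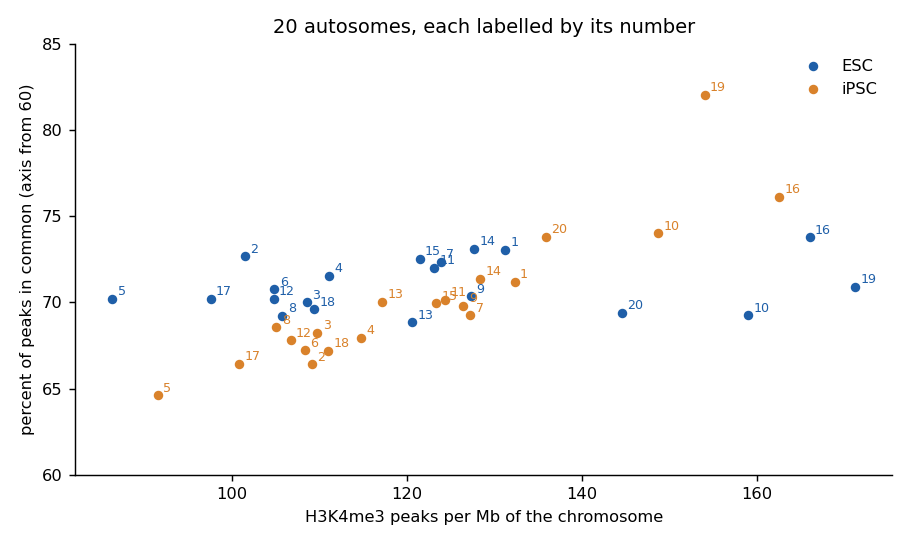
Percent of H3K4me3 peaks in common (axis from 60) against peaks per Mb for each autosome, in ESC (blue) and iPSC (orange), labelled by chromosome number. The iPSC points climb from chromosome 5 at 64.6% to chromosome 19 at 82.1%, while the ESC points stay between 68.8% and 73.8%.

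In bins of 1 Mb the lists followed each other. None of the 2604 bins lacked a peak of either list, and medians were 110 ESC and 113 iPSC peaks. The densest bin was the same in both, 50 to 51 Mb on chromosome 11, with 370 ESC and 355 iPSC peaks, and it holds the large H3K27me3-covered cluster described above. In 14 bins with at least 20 ESC peaks there were at least 2 times as many ESC as iPSC peaks, and in no bin with at least 20 iPSC peaks was it the other way round. They lay on chromosomes 3, 6, 8, 10, 12, 19 and 20, mostly side by side. On chromosome 3 the bin from 175 to 176 Mb had 114 ESC and 30 iPSC peaks, and on chromosome 19 that from 23 to 24 Mb had 185 and 80.

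These 14 bins were picked by the number of H3K4me3 peaks, so their low share in common, 28.8% of 1690 ESC peaks, is a description. The marks beside the peaks did not enter the choice. iPSC H3K9me3 overlapped 93.6% of these ESC peaks and iPSC H3K27me3 82.8%, against 14.8% and 17.7% of the ESC peaks in all other bins. ESC H3K9me3 overlapped 26.7% and 18.7%. The ground itself was widely covered by the iPSC marks. In the bins of chromosomes 3 and 19 given above, iPSC H3K9me3 covered 75.3% and 72.8% of the bin. There iPSC H3K27me3 covered 24.7% and 40.7%, so any peak in these bins meets these marks easily. Of the 711 iPSC peaks in the 14 bins 77.2% were in common, and iPSC H3K9me3 overlapped 92.0% of them. Outside these bins ESC H3K9me3 still overlapped 43.9% of the 11816 far one-sided ESC peaks and 13.8% of the ESC peaks in common. The share of ESC peaks in common outside them was 71.4%.

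The bins in which iPSC peaks were most in excess differed less. The highest were on chromosome 2, from 69 to 70 Mb with 195 ESC and 272 iPSC peaks and from 114 to 115 Mb with 156 and 221. An excess of 57 peaks followed in 4 bins, on chromosomes 2, 4, 6 and 7. H3K9me3 covered 2.31% to 8.90% of these 6 bins in iPSC and 2.92% to 11.6% in ESC.

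Beyond the autosomes the X chromosome carried 16426 ESC and 8871 iPSC peaks, of which 41.3% and 77.9% were in common. In number these were close, 6784 and 6912, so the shares differ mostly with the numbers of peaks. The ESC share was below that of each autosome, and the iPSC share was above all but chromosome 19.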

How the data were processed

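SAMtools 1.10, Picard 2.239, MACS2 and deepTools took part, per the submitters' processing notes. How reads were aligned, to which build, and how 6 libraries became a list was not given in the sources used here. Deposited H3K4me3 lists give for each peak a fold enrichment, a ratio from the authors' peak caller, a −log10 q and a summit. Other deposited lists, of 3 marks, were used for overlap of at least 1 bp. Read counts were not used, so the depth behind a peak is unknown and limits the precision in a way that is not shown here. The members and classes were chosen with earlier results of these data known. Spacing, clusters and shifts were computed in Python 3.11.15 with numpy 2.4.6 and pandas 2.3.3, in functions tested on simulated data. Shares have Wilson intervals and medians order-statistic intervals. Chromosome lengths are the furthest end of any peak. Named were, by rule, the 5 widest peaks and 5 largest clusters of a list, the 5 highest −log10 q without a peak of the other list within 10 kb, the 3 longest stretches and the 3 highest and 3 lowest chromosomes; the 1-Mb bins, the wide one-sided peaks and the widest isolated peak were named after their values were seen. The labels put 3 replicates of 2 lines in each group. No gene was named, since the gene table at hand is of another assembly.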

Additional observations from a re-analysis of the deposited data

Results flagged for a closer look

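Peaks on unplaced scaffolds were outside all comparisons above and are given as a signal in data that no comparison used. There were 14667 ESC and 13490 iPSC H3K4me3 peaks on them, of which 61.3% and 67.1% were in common. Their median widths were 250 and 251 bp. On these short sequences 31.1% of the ESC and 33.6% of the iPSC peaks had no other summit within 20 kb.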

How the results depend on the processing

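No paired analysis was possible because there is 1 list per cell type, and for the same reason no replicate could be left out. With peaks of −log10 q of at least 5 in both lists, the share in common was 69.6% in ESC and 68.6% in iPSC, and with at least 10 it was 68.8% and 68.9%. Asking for an overlap of at least 50% of both peaks gave 53.7% and 53.2%. Asking for a summit within 500 bp gave 70.5% in iPSC, and leaving out chromosome 19 gave 69.4% in iPSC. Leaving out the 14 bins rich in ESC peaks, chosen after seeing the data, gave 71.4% in ESC. The share of peaks of at least 1 kb was 10.97% in ESC and 11.6% in iPSC at −log10 q of at least 5, and 26.9% and 28.3% of domains once peaks within 1 kb were joined. Median spacing was 3932 bp in ESC and 3774 bp in iPSC at −log10 q of at least 5, and 2976 bp in ESC without chromosome 19. The share in clusters of at least 10 depended most on the gap: it was 0.0458% in ESC and 0.0334% in iPSC at 1 kb and 15.6% in both at 5 kb, and 0.832% and 0.955% at −log10 q of at least 5. Chained by edges within 2 kb, also chosen after seeing the data, it was 4.70% and 5.27%. Isolated peaks were 8.73% and 8.54% at 10 kb, 0.269% and 0.235% at 50 kb, and 4.61% and 4.42% at −log10 q of at least 5. Of isolated peaks 56.7% in ESC at 50 kb, and 60.4% and 56.1% in iPSC at 10 and 50 kb, were in common. The median shift was 22 bp at −log10 q of at least 5, and 24 bp for pairs within 500 bp or for overlapping peaks. The other 5 of 41 alternatives stayed within the interval of the value reported. The cause was not tested.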
